A study of Oryza sativa with 12 samples.

Results

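A set of 154 rice loci gave signal well above the array background on all 6 arrays of the cultivar FR13A and on none of the 6 arrays of the cultivar Goda Heenati. They were chosen from 29690 loci on the array by the scanner software's flag for a spot well above background, read at the probe with the highest mean signal of each locus. The flag was on for every FR13A array and off for every Goda Heenati array, so each difference between the cultivars given for these loci is a description of that choice and carries no test. Their order along the chromosomes and their response to submergence within FR13A were not used in choosing them.

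The arrays measured RNA from leaves of 14-d-old seedlings. FR13A plants kept completely under water (70 cm) for 3 d and FR13A controls in a dry tank were set beside Goda Heenati plants given the same pair of treatments, with 3 samples in each of the 4 groups and 1 array per sample. Each sample pooled leaves of about 20 plants from several pots, so the spread between samples is that between pools and not between plants. At the start of submergence the shoot tips of FR13A lay 52.7 ± 2.3 cm below the surface and those of Goda Heenati 45.9 ± 2.9 cm, so the cultivars also differed in their depth under water.

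FR13A is a landrace known for surviving complete submergence, in which the SUB1 region of chromosome 9, a cluster of ethylene response factor genes, holds shoot elongation back. Rice cultivars differ widely in gene content, in the sequence of shared genes and in their expression. An oligonucleotide probe can bind less well to a sequence that differs from its own. At a single probe, a transcript missing from Goda Heenati leaves and a transcript whose Goda Heenati sequence the probe does not bind therefore cannot be told apart. The locus numbers are those of the reference cultivar Nipponbare, in which the digits before the g give the chromosome and the digits after it the order along it. The files do not pair these loci with gene names, so the members are given by locus, with no role.

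Each array carried 45151 spots, and between 30982 and 34837 spots other than controls were well above background. Every slide held 1 array of each group and the slide matches the replicate number. The arrays of slide 1 were scanned on another day than the rest and had 1868 to 2442 saturated spots, against 0 on every other array, although no member was saturated. All 5 leaf marker loci, photosynthetic genes among them, were well above background on all 12 arrays, whereas 1 of 3 root loci and 0 of 2 meristem loci were.

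Among all loci, 19600 were well above background on all 6 FR13A arrays and 18485 on all 12 arrays, while 3537 were so on none. The mirrored pattern, all 6 Goda Heenati arrays and no FR13A array, was found at 158 loci. The FR13A pattern was thus about as frequent as its mirror image. A further 65 loci were well above background on 6 FR13A arrays and 1 Goda Heenati array, and 49 on 5 FR13A arrays and 0 Goda Heenati arrays.

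**Figure D1:**
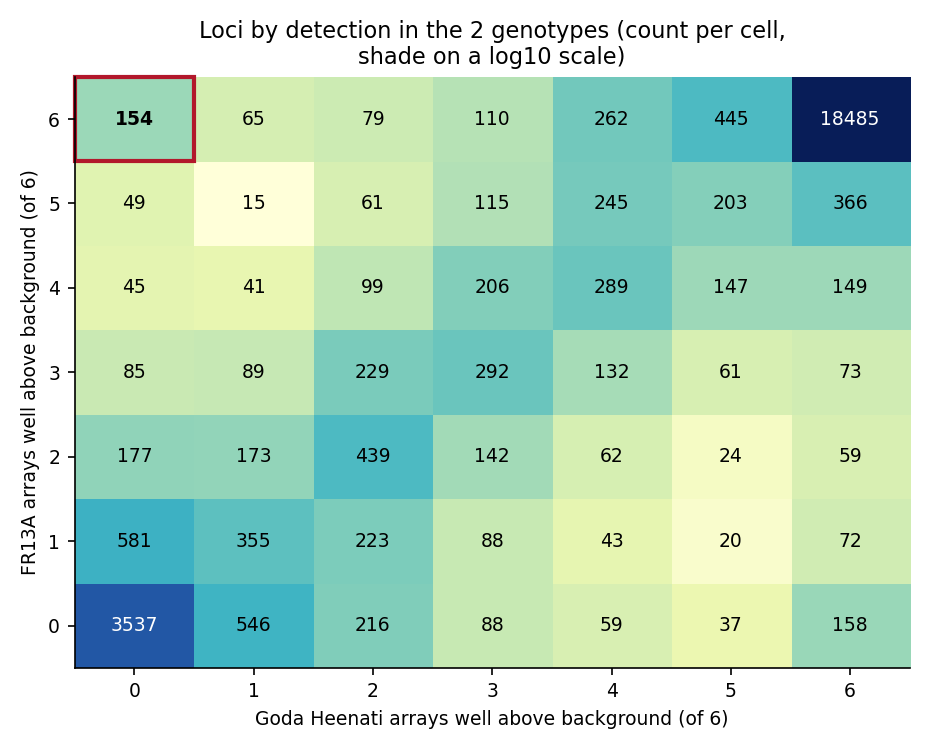
Number of loci at each pair of detection counts, with the FR13A arrays on which a locus was well above background on one axis and the Goda Heenati arrays on the other. The 154 members and the 158 loci of the mirrored pattern stand in opposite corners, and the 18485 loci on all 12 arrays fill the third.

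Most members were dim. Levels are given as the log2 processed signal minus the array's 75th percentile, so 0 is the level of a bright spot and each unit is a doubling. The mean level of a member over the FR13A arrays ran between -6.60 and 2.47, with a median of -3.45, while loci on all 12 arrays had a median of -0.97. Of the members, 27 (17.5%) lay above that median and 21 lay above the 75th percentile of their arrays. Levels of different probes are not comparable as amounts of RNA, and these medians describe signal only.

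The members' median was -3.24, -3.57 and -3.53 on the submerged FR13A arrays and -3.46, -3.57 and -3.79 on the control FR13A arrays. It was -8.51, -8.58 and -9.59 on the submerged Goda Heenati arrays and -8.64, -9.09 and -9.73 on the control Goda Heenati arrays. The 6 FR13A medians lay close together, and the 6 Goda Heenati medians lay below the lowest signal that passed as well above background, which was -7.84 to -6.58 depending on the array. On Goda Heenati arrays the members' values are therefore weak or at background, and their spread is not read as that of a transcript.

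Well above background is a stricter flag than a signal significantly above 0. By the looser flag, 47 members had no significant signal on any Goda Heenati array and 107 had some on at least 1. The members are thus loci without a strong signal in Goda Heenati, and for most of them a weak one was recorded there. Submerged and control replicates of FR13A were as close at the members, with median SDs of 0.37 and 0.39 (log2, n = 3 each), as at loci on all 12 arrays, with 0.36 and 0.38.

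**Figure D2:**
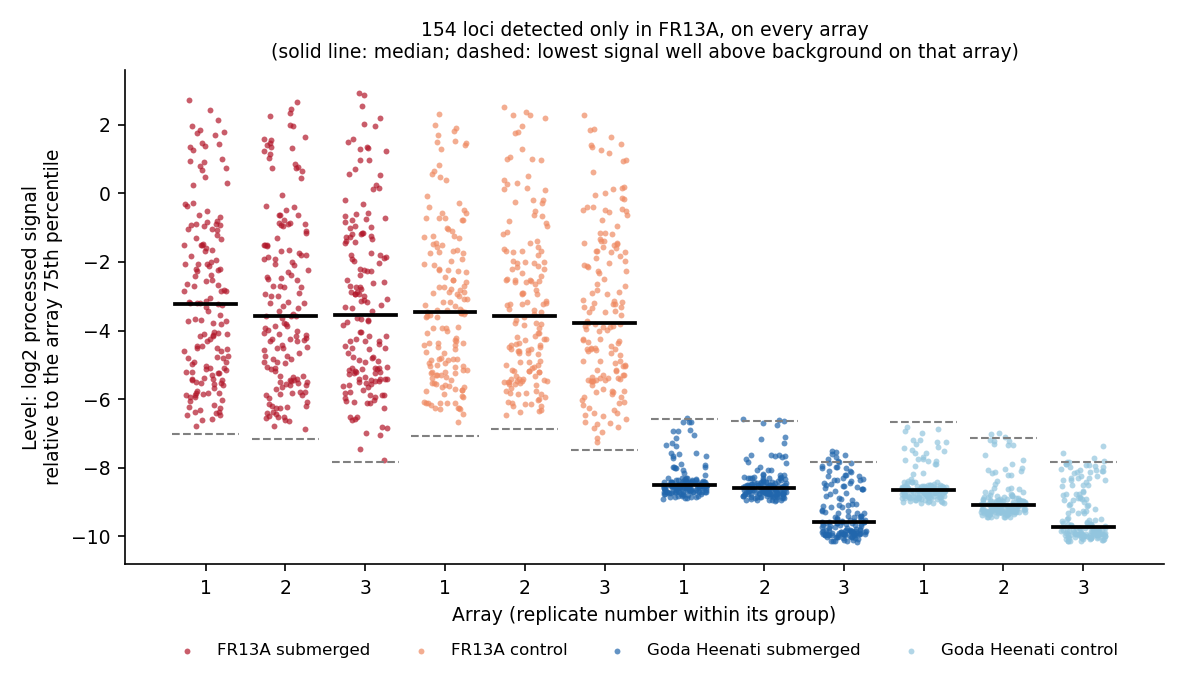
Level of the members on each of the 12 arrays, as the log2 difference in processed signal to the 75th percentile. The medians lie between -3.79 and -3.24 on the FR13A arrays and between -9.73 and -8.51 on the Goda Heenati arrays.

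A fold of FR13A over Goda Heenati has only a lower bound here, taken against the Goda Heenati array's lowest passing signal, or against the probe's own value there if that was higher. The bound had a median of at least 10.8-fold in submerged leaves and at least 11.8-fold in control leaves. It reached 10-fold in both treatments at 71 members and 100-fold in both at 21, and 2-fold in both at 136. The 71 became 61 with normexp and 54 with the lowest FR13A array set against the highest Goda Heenati array. Over both treatments the median log2 bound was 3.66, against 3.01 with normexp. The dimmest FR13A array was brighter than the brightest Goda Heenati array at 151 members and not at the other 3.

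By the mean of the log2 bounds of both treatments, the highest 4 members lay on 4 chromosomes. Os01g0386700 had levels of 2.71, 2.66 and 2.93 in submerged FR13A and 2.32, 2.36 and 1.87 in control FR13A, against -6.67, -7.65 and -9.93 in submerged Goda Heenati and -8.86, -9.27 and -9.93 in control Goda Heenati. All 6 FR13A arrays were bright and no Goda Heenati array came near them, a difference of at least 882-fold in submerged and at least 673-fold in control leaves. Os07g0115200 had levels of 1.77, 2.35 and 2.86 in submerged FR13A and 1.91, 2.50 and 2.27 in control FR13A, against -8.56, -8.76 and -9.94 in submerged Goda Heenati and -8.71, -9.28 and -9.97 in control Goda Heenati. The cultivars were apart by at least 651-fold in the submerged and at least 694-fold in the control leaves.

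Os09g0340400 was measured by 3 probes, and the pattern held at each. Its brightest probe had levels of 1.83, 2.46 and 2.54 in submerged FR13A and 1.47, 2.28 and 1.65 in control FR13A, against -8.55, -8.61 and -9.73 in submerged Goda Heenati and -8.70, -9.14 and -9.78 in control Goda Heenati. The bounds were at least 628-fold in submerged and at least 516-fold in control leaves. Its other probes averaged 2.30 and 1.86 in submerged FR13A and 1.91 and 1.41 in control FR13A, against -9.04 and -8.98 in submerged Goda Heenati and -9.31 and -9.21 in control Goda Heenati. Each of the 3 probes set all FR13A arrays apart from all Goda Heenati arrays by the flag.

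Os04g0340800 had levels of 1.97, 2.00 and 2.20 in submerged FR13A and 1.82, 2.19 and 1.16 in control FR13A, against -8.56, -8.64 and -9.74 in submerged Goda Heenati and -8.69, -9.19 and -9.94 in control Goda Heenati. The bounds were at least 540-fold in submerged and at least 489-fold in control leaves, with no overlap between the cultivars. A dimmer probe of this locus averaged -1.59 in submerged FR13A and -1.86 in control FR13A and was well above background on 1 Goda Heenati array. None of these 4 loci passed the test for a response to submergence described further on (limma log2 changes of 0.10 to 0.58, adjusted p of 0.145 to 0.858).

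Of the members, 2 are named as just inside the threshold for the smallest gap between their dimmest FR13A and brightest Goda Heenati arrays. Their closeness restates that choice and is no finding about the threshold. Os06g0569700, just inside it, had levels of -6.25, -6.87 and -7.45 in submerged FR13A and -6.27, -5.93 and -6.84 in control FR13A, against -7.04, -6.65 and -8.62 in submerged Goda Heenati and -7.32, -7.77 and -9.81 in control Goda Heenati. Its arrays overlapped between the cultivars, and the bounds were at least 1.12-fold and 1.82-fold in the submerged and control leaves. Os07g0421200 also overlapped, with levels of -5.54, -6.43 and -5.40 in submerged FR13A and -5.55, -5.48 and -7.26 in control FR13A, against -8.65, -8.74 and -8.54 in submerged Goda Heenati and -6.86, -9.25 and -7.91 in control Goda Heenati.

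A further 2 loci are named as just outside the threshold, out of 65 on 6 FR13A arrays and 1 Goda Heenati array. They had the largest gap between the dimmest FR13A and the brightest Goda Heenati array. Their brightness in FR13A follows from that choice, and they do not stand for the 65. Os01g0249900 had levels of 0.84, 1.20 and 1.05 in submerged FR13A and -0.40, 0.43 and -0.46 in control FR13A, against -7.96, -7.99 and -7.44 in submerged Goda Heenati and -8.66, -8.85 and -7.61 in control Goda Heenati. A flag on 1 Goda Heenati array kept it out, although the cultivars' arrays did not overlap. Os11g0429900 was left out in the same way, with levels of 1.63, 1.58 and 1.29 in submerged FR13A and 0.48, 0.96 and -0.32 in control FR13A, against -8.67, -6.00 and -9.12 in submerged Goda Heenati and -8.88, -7.91 and -8.72 in control Goda Heenati.

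Other probes of the same locus were available for 33 members, which had 36 of them. The pattern recurred at 20 of the 36 (55.6%), 4 were on all FR13A arrays and some Goda Heenati arrays, 9 were on no array and 3 showed another pattern. None was on all 12 arrays, but the brightest probe stands for a locus, so a locus with a probe bright in both cultivars tends not to be a member. Counted over every probe whatever its rank, 212 probes had the pattern, 91 of them in 70 loci with several probes. Of those 70 loci, 17 had the pattern at every probe and 16 also had a probe well above background on all 12 arrays. At those 16 loci, a different probe of the locus was thus detected in both cultivars.

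By the class in the array's own probe names, 103 members (66.9%) rested on mRNA sequences, 35 (22.7%) on predictions with EST evidence and 16 (10.4%) on predictions alone, as the names mRNA, COMBINER_EST and COMBINER are read here. The shares were 69.0%, 23.4% and 7.59% of all loci, and 76.1%, 18.8% and 5.12% of loci on all FR13A arrays. Members were thus nearer in class to the array as a whole than to the loci detected in FR13A.

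Members lay on all 12 chromosomes. Chromosome 1 held 22, chromosomes 2 and 6 held 17 each, chromosome 8 held 16, and chromosome 10 held the fewest, 8. Relative to the loci detected on all FR13A arrays, 0.786% of which were members over the genome, chromosome 8 had the largest share, 1.22%, and chromosome 3 the smallest, 0.379%. Goda Heenati's mirrored loci were spread differently, with 29 on chromosome 12 and 20 on chromosome 11, where members numbered 10 and 9, and with 6 on chromosome 8. These shares are counts over linked loci and were not tested.

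Within chromosomes, 93 of the 154 members (60.4%) fell in the lower-numbered part, the loci before the middle one in order, against 48.6% of loci on all FR13A arrays. On chromosome 1 it was 19 of 22 (86.4%), on chromosome 9 it was 8 of 9 and on chromosome 4 it was 8 of 10. Chromosomes 5 and 11 ran the other way, with 2 of 13 and 2 of 9, as did chromosome 7 with 5 of 13. On chromosome 2 it was 8 of 17 (47.1%), against 47.7% of loci on all FR13A arrays. Most mirrored loci of chromosomes 1 and 9 also lay in the lower-numbered part, so the lean there is not particular to the members. On chromosome 5 the mirrored loci lay in the lower-numbered part, unlike the members.

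Some members were neighbours. Another member stood directly next to 16 of the 154 (10.4%), whereas 0.972% of the other loci had a member next to them. Within 10 loci on either side, 40 members (26.0%) had another, against 8.85% of the other loci. The mirrored loci clustered to a like degree, with 19 of 158 (12.0%) directly next to one of their own kind and 50 (31.6%) within 10 loci of one.

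**Figure D3:**
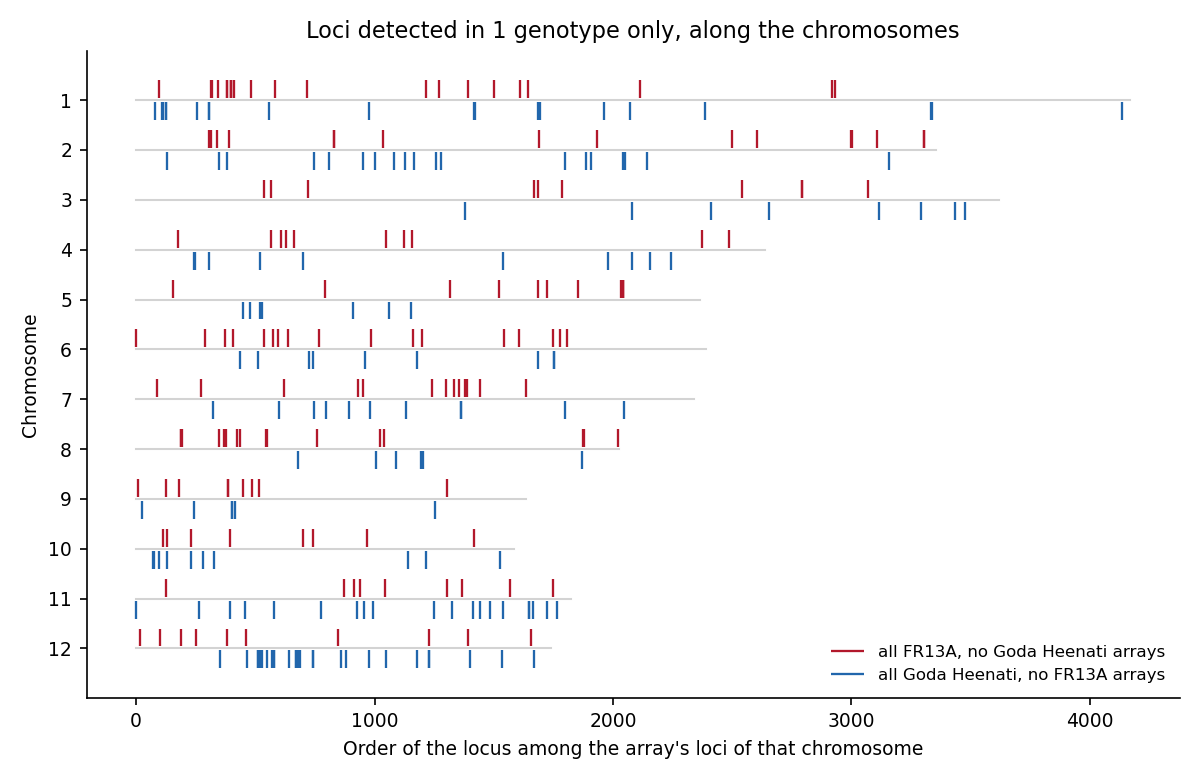
Position of the 154 members and the 158 loci of the mirrored pattern by order of locus number along the 12 chromosomes. Members of FR13A gather in the lower-numbered part of chromosome 1 (19 of 22), as most mirrored loci of that chromosome do, and in 1 dense group on chromosome 5. The mirrored loci are densest on chromosome 12 (29).

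The densest run of members was on chromosome 5, where 6 of 10 consecutive loci between Os05g0545700 and Os05g0547700 were members. Os05g0545900 had levels of 1.25, 1.14 and 1.35 in submerged FR13A and 1.30, 1.30 and 1.25 in control FR13A, against -8.38, -8.42 and -9.58 in submerged Goda Heenati and -8.51, -8.95 and -9.65 in control Goda Heenati. The cultivars were apart by at least 308-fold in submerged and at least 360-fold in control leaves, and the FR13A arrays spanned hardly any range. Os05g0546800 had levels of 1.43, 1.46 and 1.49 in submerged FR13A and 1.50, 1.95 and 1.84 in control FR13A, against -6.92, -7.62 and -7.79 in submerged Goda Heenati and -7.81, -8.05 and -7.97 in control Goda Heenati. Its bounds were at least 353-fold in submerged and at least 503-fold in control leaves.

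Os05g0546400 had levels of -1.03, -1.17 and -1.15 in submerged FR13A and -1.69, -2.63 and -1.44 in control FR13A, against -8.78, -8.85 and -10.04 in submerged Goda Heenati and -8.94, -8.95 and -9.84 in control Goda Heenati. All FR13A arrays lay above all Goda Heenati arrays, by at least 59.7-fold in the means of submerged and 39.2-fold in those of control leaves. Os05g0547100 and Os05g0547600 were dimmer in FR13A, with bounds of at least 8.65-fold and 2.94-fold in submerged and at least 12.3-fold and 2.82-fold in control leaves. The sixth member of the run, Os05g0547700, is described although the naming rule stops at 5 per run, and it had the pattern at both of its probes. It had levels of 0.46, 0.85 and 0.52 in submerged FR13A and -0.39, 0.08 and -0.40 in control FR13A, against -8.31, -8.22 and -9.14 in submerged Goda Heenati and -8.39, -8.71 and -9.62 in control Goda Heenati.

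The 4 remaining loci of the run did not share the pattern. Os05g0546500 and Os05g0546600 were well above background on all 12 arrays, with mean levels of 2.38 and 0.71 in submerged FR13A and 2.70 and 0.25 in control FR13A, against 1.32 and 0.76 in submerged Goda Heenati and 2.41 and 0.38 in control Goda Heenati. Os05g0545700 and Os05g0546300 leaned to the other cultivar, well above background on 4 and 0 FR13A arrays, against 6 and 5 Goda Heenati arrays. The run therefore held loci seen in FR13A, loci seen in both and loci seen mainly in Goda Heenati side by side. None of its 6 members was called for a response to submergence (log2 changes of -0.32 to 0.85).

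**Figure D4:**
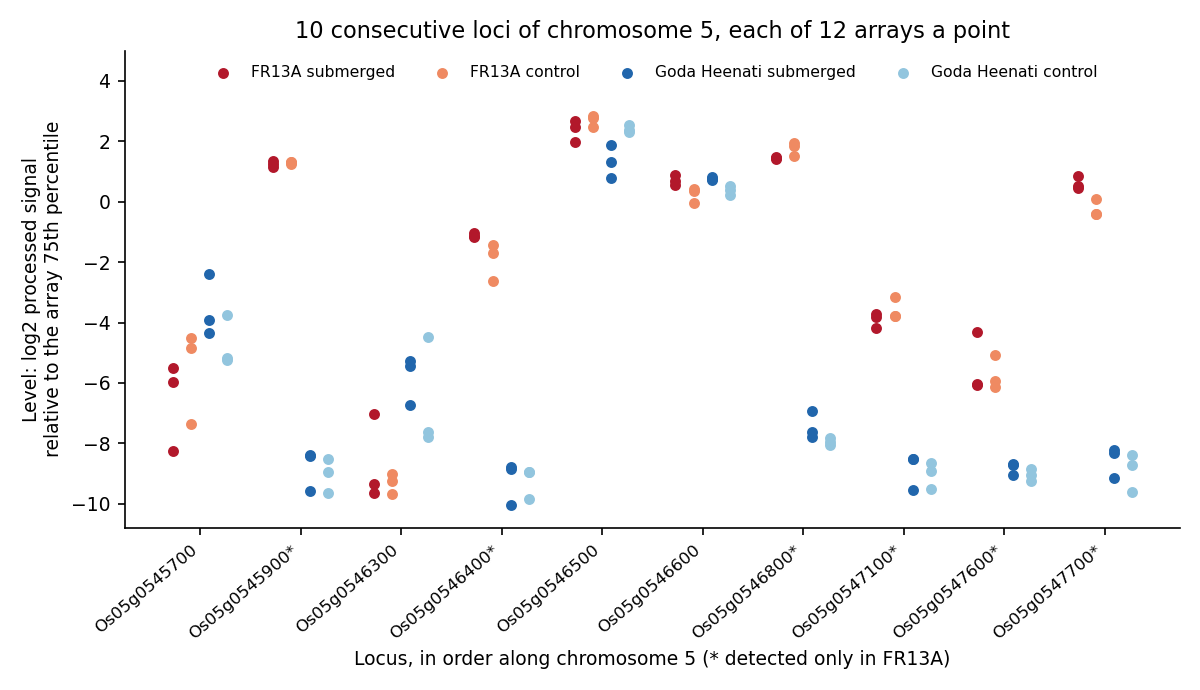
Levels of the 10 consecutive loci of the chromosome 5 run on the 12 arrays, in order of locus number, as the log2 difference in processed signal to the 75th percentile. The 6 members separate the cultivars, Os05g0546500 and Os05g0546600 are detected on all 12 arrays, and Os05g0545700 and Os05g0546300 lie mostly higher in Goda Heenati.

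The next densest runs each held 3 members among 10 loci. On chromosome 1, between Os01g0159800 and Os01g0161600, Os01g0160900 had levels of -0.69, -0.92 and -1.19 in submerged FR13A and -1.26, -1.20 and -0.18 in control FR13A, against -8.59, -8.55 and -9.31 in submerged Goda Heenati and -7.77, -8.92 and -8.15 in control Goda Heenati. This was at least 67.9-fold in submerged and at least 80.6-fold in control leaves, and its neighbours Os01g0161000 and Os01g0161600 were dimmer, with bounds of at least 2.65-fold to 5.82-fold over both treatments. Between them, Os01g0161300 was well above background on 4 FR13A arrays and 6 Goda Heenati arrays. In a wider frame of 100 loci, chosen after seeing the data, the same region from Os01g0147700 to Os01g0164600 held 9 members and 0 mirrored loci, the most of any such window.

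On chromosome 8, between Os08g0131000 and Os08g0133200, Os08g0132600 had levels of 0.99, 1.24 and 1.24 in submerged FR13A and 0.40, 0.98 and 0.61 in control FR13A, against -8.37, -6.69 and -8.39 in submerged Goda Heenati and -7.90, -7.88 and -9.32 in control Goda Heenati. The bounds were at least 289-fold in submerged and at least 234-fold in control leaves, although its other probe was well above background on 2 Goda Heenati arrays. Os08g0132700 and Os08g0133200 stood at the other end of the range, with bounds of at least 1.42-fold and 1.72-fold in submerged and at least 1.66-fold and 3.55-fold in control leaves. The densest runs of mirrored loci, 5 and 3 of 10 on chromosome 12 and 4 of 10 on chromosome 5, held 0 members.

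Of the SUB1 region, only the loci taken for SUB1B (Os09g0287000) and SUB1C (Os09g0286600) were looked up, and neither was a member. Both passed the flag on all 12 arrays. A gene of the region without a locus number on the array could not have been a member, so the region as a whole was not assessed. The nearest members on chromosome 9 were Os09g0255900 on the lower-numbered side and Os09g0322400, 99 loci after SUB1B, on the other. A list of 86 loci was written down from general knowledge. It covered submergence and anaerobic responses, hormone and stress responses, natural variation between cultivars and tissue markers. Of these, 81 were on the array and 0 were members. Only 0.519% of all loci on the array were members, so a count of 0 is near that share. In the submergence list 11 of 14 were on all 12 arrays, and among the natural variation loci 20 of 37 were, with 5 on none.

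Within FR13A, few of the members were called for a response to submergence, and those in both directions. A member that was not called is not thereby shown to be unchanged. Of the 154, 7 rose, 8 fell and 139 did not pass the test (limma on the 6 FR13A arrays, Benjamini-Hochberg adjusted p under 0.05 over all loci tested, and at least 2-fold). The 15 called are 9.74% of members, against 18.1% of all loci tested and 15.4% of loci on all 6 FR13A arrays. By direction, 4.55% of members rose, against 8.36% of all loci tested and 7.13% of those on all 6 FR13A arrays. Of members 5.19% fell, against 9.78% and 8.29% of the same sets. With the replicate number, which is the slide, as a block in the fit, 27 members were called (17.5%), 16 higher and 11 lower, against 22.0% of loci on all 6 FR13A arrays. Leaf RNA comes from a mixture of cells, in which fewer cells of a type and less RNA per cell cannot be told apart.

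The median log2 change of submerged over control was 0.16 over the members, 0.07 over all loci tested and 0.06 over loci on all 6 FR13A arrays. These medians moved to 0.99, 0.47 and 0.40 in the normexp alternative, so the members' shift depends on the processing. That alternative changed the spot signal as well as the background correction, and the part of each was not tested. In the main setting, the median absolute size was 0.66 for the members and 0.57 for loci on all 6 FR13A arrays, and the median SE was 0.34 and 0.33. A change of at least 2-fold was estimated at 37 members (24.0%), against 27.6% of loci on all 6 FR13A arrays, and 22 of those 37 were not called. The submerged and control arrays did not overlap at 63 members (40.9%), against 39.4% of loci on all 6 FR13A arrays.

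Called members were of middling level. Of the 76 in the middle of the members' range of levels, between -5.19 and -1.53, 13 were called (17.1%), against 17.7% of the 7498 other loci in that range. Of the 39 brighter members 1 was called, against 14.8% of 10896 other loci above that range, and of the 39 dimmer ones 1 was called, against 6.18% of 1051 below it. Whether the brightest members respond less often was not tested.

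The 7 members that rose had log2 changes of 1.60 to 2.82. Os09g0350900 had levels of -1.48, -1.86 and -2.23 in submerged FR13A, against -4.43, -4.66 and -3.98 in control FR13A. Every submerged array lay above every control array, and the change was 2.50 ± 0.31 (SE, limma, adjusted p = 0.00487), with 2.95, 2.80 and 1.75 on the 3 slides. Os10g0419000 had levels of -2.13, -1.73 and -2.72 in submerged FR13A, against -4.87, -4.54 and -4.66 in control FR13A, again with no overlap. Its change was 2.49 ± 0.31 (SE, limma, adjusted p = 0.00511).

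No Goda Heenati array at these loci was well above background in either treatment. For Os09g0350900 they stood at -7.89, -8.55 and -9.87 when submerged and -8.72, -9.22 and -9.98 in controls, and for Os10g0419000 at -8.44, -8.30 and -9.92 when submerged and -8.55, -8.83 and -9.88 in controls. A response of the members in Goda Heenati was therefore not measured, and no difference in response between the cultivars was tested. The bound against Goda Heenati was larger in submerged leaves, at least 35.9-fold for Os09g0350900 and at least 28.3-fold for Os10g0419000, than in control leaves, at least 7.24-fold and 5.74-fold. Its Goda Heenati side was the lowest passing signal in both treatments, so this restates the rise in FR13A for which these loci were named.

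The 8 members that fell had log2 changes of -2.78 to -1.13. Os07g0510800 had levels of -3.66, -3.57 and -3.43 in submerged FR13A, against -1.71, -1.58 and -1.57 in control FR13A. The arrays did not overlap and the replicates were close, with a change of -1.93 ± 0.22 (SE, limma, adjusted p = 0.00353), although its other probe was well above background on 0 FR13A arrays and 1 Goda Heenati array. Os02g0828400 had levels of -4.10, -4.11 and -3.10 in submerged FR13A, against -1.52, -1.69 and -1.39 in control FR13A. Its change was -2.24 ± 0.34 (SE, limma, adjusted p = 0.00884), with -2.58, -2.42 and -1.71 on the 3 slides.

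The direction was the same on all 3 slides at 109 of the 154 members (70.8%), against 66.6% of loci on all 6 FR13A arrays. The 15 called members were among them, as arrays that do not overlap require, and they lay on 9 chromosomes, with at most 3 on one, and none lay in the chromosome 5 run. With the 2 FR13A arrays of slide 1 left out, an alternative chosen after seeing the data, limma called 1 member higher and 0 lower. That member was not among the 15, of which 0 stayed called. At an unadjusted limma p under 0.05 were 29 members (18.8%), against 20.6% of loci on all 6 FR13A arrays. With all 6 arrays these were 59 members (38.3%), against 33.3%. Over all loci tested, the same omission left 226 higher and 192 lower, against 1819 and 2126. That slide held the saturated spots, but no member was saturated. Setting those spots to missing therefore left the members' own values unchanged, and all 15 were still called, which is no test of saturation. Slide 1 was also scanned apart, and the part of the scan in the calls was not tested. Leaving out a single array also moved the count: without submerged array 2 it was 3 higher and 2 lower (3.25% of members, against 4.28% of loci on all 6 FR13A arrays), and without submerged array 3 it was 12 higher and 12 lower (15.6%, against 18.1%). Fewer fell without submerged array 1 (2), control array 1 (4) or control array 3 (4). Over all loci tested the lower calls also dropped, to 971, 1241 and 1304, against 2126. The called share of members was 4.55%, 5.84% and 6.49%, against 6.16%, 7.61% and 8.71% of loci on all 6 FR13A arrays.

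**Figure D5:**
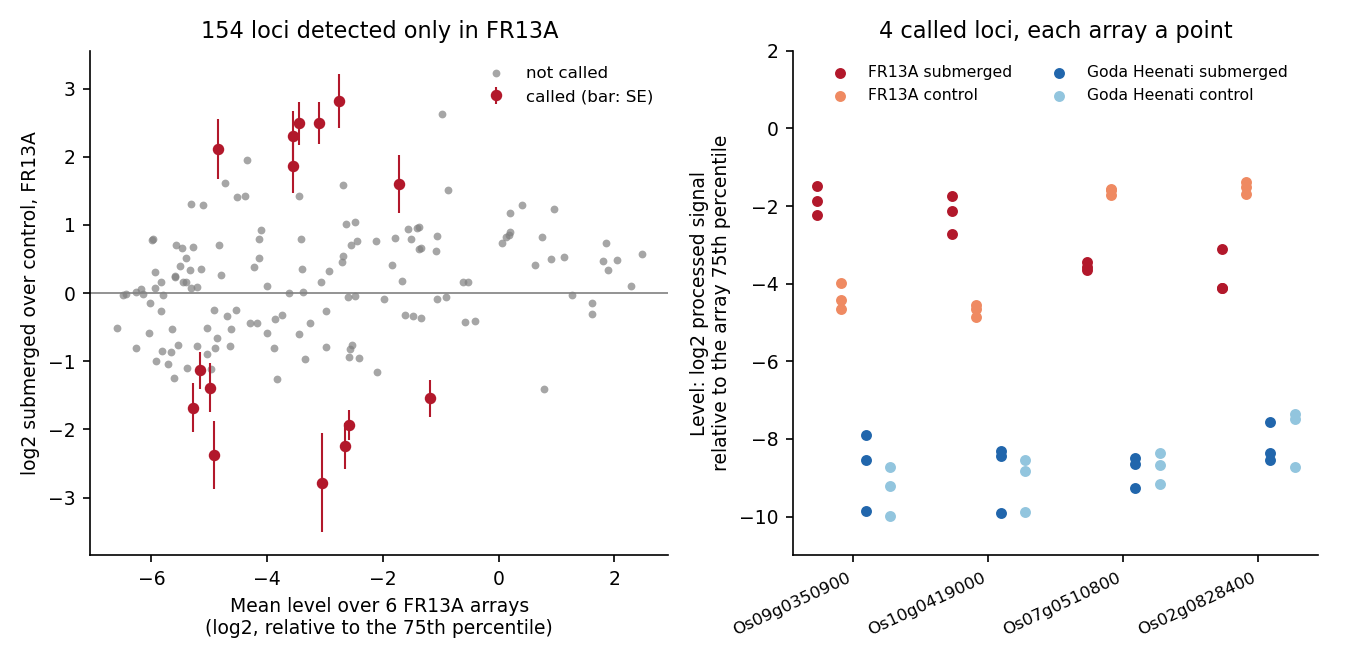
Left, log2 change of submerged over control FR13A against the mean FR13A level for the 154 members, with the 7 called higher and 8 called lower in red with their SE. Right, the levels of the 4 named responders on all 12 arrays, where submerged and control FR13A separate and all Goda Heenati arrays lie lower.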

How the data were processed

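The authors read one-colour (Cy3) arrays with Agilent Feature Extraction 10.5.1.1, per the submitters' processing notes. Each deposited array file gives spot intensity, not log-transformed, and its processed signal is background-subtracted, per the file headers. The deposited value table holds log2 values of 42475 probes, each column with a median of 10.02 and a correlation of at least 0.9975 with its own array, and it served as an alternative.

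Groups and replicate numbers came from the sample titles. The log2 processed signal had each array's 75th percentile subtracted, taken without control spots. Spots flagged as outliers were left out of the limma fit on these values, but not of the member rule, the levels or the bounds. Submerged and control FR13A arrays were compared with limma 3.58.1 in R 4.3.3 (lmFit, eBayes, 4 residual degrees of freedom) at 21749 loci that passed on every array of the submerged or the control FR13A group. Counting used Python 3.11.15, and the fit was tested on simulated data. The number of arrays limits the precision. Same-numbered FR13A arrays, which share a slide, deviated together (r of 0.361 to 0.565, other pairs -0.347 to -0.046), so the numbers pair the samples, and the main fit has no block.

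The members and lists were chosen with earlier results of these data known. Members are named where they had the smallest adjusted p (2 in each direction), the 4 largest bounds, 3 probes all with the pattern, a place in one of the 3 densest runs of 10 loci, up to 5 each, or the 2 places just inside and outside the threshold. Loci in the list of known names would have been named, and none was a member. Alternatives included other flags, probes, normalizations, filters and left-out arrays. The normexp alternative used the median spot signal with an offset of 50 in place of the mean signal that had been planned, which is not used here.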

Additional observations from a re-analysis of the deposited data

How the results depend on the processing

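The count of 154 loci became 76 with the flag for a signal significantly above 0, ran between 154 and 176 with 1 array left out, and was 145 with a 2-fold gap between the cultivars (an alternative chosen after seeing the data). With the looser flag 0 members stood next to another, against 16. Of the submergence calls, 7 higher and 8 lower, the fit of 4 groups gave 12 higher, the replicate block 16 higher, no filter 5 lower, and leaving out 1 FR13A array 3 to 12 higher and 2 to 12 lower. The fewest, 3 higher and 2 lower, came without submerged array 2. Leaving out submerged array 1, control array 1 or control array 3 gave 2, 4 and 4 lower, and leaving out submerged array 3 gave 12 higher and 12 lower. With normexp limma called 0 higher and 0 lower (24 at an unadjusted p under 0.05), and without slide 1, also chosen after seeing the data, 1 higher and 0 lower. Over all loci, normexp gave 251 higher and 52 lower, slide 1 left out 226 and 192, and 1 array left out 571 to 1980 and 764 to 2530. Normexp moved the median log2 change of all loci to 0.47, against 0.07, and that of the members to 0.99, against 0.16. The replicate block changed no other call by over 1.5 times. Of the 15 called members, 0 stayed called without slide 1. Under normexp, 0 stayed called and 3 had the other direction. The 4 named responders kept theirs there and without slide 1, with adjusted p of 0.0537 to 0.488 and 0.0603 to 0.0993, but under normexp Os07g0510800 had -0.79, against -1.93, and Os02g0828400 had -0.93, against -2.24. The causes were not tested. Dim members stand close to the detection threshold, which limits both the pattern and the bounds.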

Other observations

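The array also held 569 probes without a locus, 510 of them for miRNAs. Of these, 67 were well above background on all 12 arrays, 0 only on the FR13A arrays and 0 only on the Goda Heenati arrays.

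Of the 158 mirrored loci, those with several probes had 21 other probes, and the mirrored pattern recurred at 9 of the 21 and 0 were on all 12 arrays. For loci on all 12 arrays, 9036 of 10414 other probes (86.8%) were also on all 12.

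Besides the chromosome 1 region, windows of 100 loci with 5 members stood at Os02g0142800 to Os02g0156300, Os07g0521000 to Os07g0538300 and Os08g0165200 to Os08g0185300. These windows were chosen after seeing the data and were not tested.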
